A study of Mus musculus with 16 samples.

Results

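The Notch ligands Dll1, Dll3, Dll4, Jag1 and Jag2, the receptors Notch1, Notch2 and Notch3 and the effectors Hes1 and Hes6 were followed in the transcriptomes of preSC, mouse cells that precede small cell lung cancer. These 10 genes were taken by their symbols from the 17655 genes listed for every sample. A row was found for each of the 10. The cells are described by the labels as lung neuroendocrine cells positive for Chga, null for Rb1 and Trp53 and carrying 1 null allele of Rbl2. The 8 samples termed empty carry a lentiviral control vector without insert and the 8 samples termed Wnt5a carry a lentivirus with Wnt5a, a secreted Wnt ligand. Both groups share the genotype and received doxycycline at 1 µg/mL for 48 hours. The promoter of the lentiviral insert, and whether the samples are separate cultures or clones, are not given in the sources used here. The p-values therefore measure only the spread between the 2 sets of samples averaged in each group, as described below.

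Notch signalling passes between neighbouring cells. A ligand of the Delta or Jagged type on one cell binds a Notch receptor on the next, the receptor is cut by Adam proteases and then by gamma-secretase, and its released intracellular part joins Rbpj and a Mastermind protein on DNA to activate genes such as those of the Hes and Hey repressors. In the lung, Hes1 holds back the neuroendocrine programme, and neuroendocrine cells are known as cells rich in Delta-type ligands. Dll3, which mostly stays inside the cell and does not activate Notch on neighbours, is a surface marker and drug target of small cell lung cancer, and Hes6 is a Hes family member that opposes Hes1.

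Recovered reads numbered 7526676 to 8859862 per sample. In each group the reads of samples 1 to 4 matched each other to within or nearly within counting noise (index of dispersion, which is 1 for counting noise alone, at 0.987 to 1.05), and so did those of samples 5 to 8, while pairs across these sets had an index of 5.23 to 5.44. Samples 1 to 4 were therefore averaged as library A and samples 5 to 8 as library B, and SD values are over these 2 libraries of a group. The samples of a library are not counted as replicates, so a separation of single samples adds little to that of the libraries. The introduced gene, Wnt5a, had a lowest, median and highest normalised read count of 90.4, 114 and 174 in the 8 empty samples and of 1032, 1272 and 1560 in the 8 Wnt5a samples, so every sample matched its label (log2 difference 3.38, limma adjusted p = 0.0010). All 7 neuroendocrine markers examined were abundant, with a summed normalised read count of 27834 to 28393 in empty libraries against 24002 to 25266 with Wnt5a, without overlap. Of the single markers only Calca, the largest term of the sum, did not overlap (8494 and 8002 against 6979 and 6336). Libraries without overlap were seen for 44.2% of all tested genes. Of these 7 markers 0 were called by limma (2.06% of all tested genes) and 1, Calca, had an unadjusted p under 0.05 (16.1%). The part of these markers in the Notch differences was not tested. Chga, the marker in the label, was at 4370 and 3716 against 3800 and 3007, with overlap (log2 difference -0.25, limma adjusted p = 0.428).

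The Notch genes differed widely in level. Per kilobase of the longest annotated transcript, the order in the empty libraries ran from Hes6 at 1747 ± 9.83 (SD, n = 2) through Jag2 at 299 ± 10.2 and Dll3 at 264 ± 20.2 to Dll4 at 114 ± 14.3, Dll1 at 112 ± 6.63 and Jag1 at 101 ± 13.4. The last 3 of these did not differ beyond their spread. Below them stood Notch2 at 38.7 ± 3.10 and Hes1 at 17.1 ± 6.68, and Notch3 and Notch1 were at 0.114 ± 0.0634 and 0.0436 ± 0.0616. All 5 ligands therefore stood above the receptors in level per kilobase. By its mean over all 4 libraries, Hes6 lay above 98.4% of 12225 tested genes with a known length, Notch2 above 19.3% and Hes1 above 14.4%.

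In the Wnt5a libraries the upper part of the order was the same, with Hes6 at 1319 ± 101, Jag2 at 283 ± 16.5 and Dll3 at 194 ± 19.2 per kilobase (SD, n = 2). Notch2, at 17.8 ± 4.18, no longer stood above Hes1, at 22.2 ± 2.92, and the ranges of these 2 genes overlapped. Summed per kilobase, the 5 ligands (without Dner, an atypical ligand) came to 884 and 897 in the empty libraries and to 722 and 771 in the Wnt5a libraries. The 4 receptors, Notch4 included, came to 47.4 and 41.1 against 24.1 and 19.8. The ratio of summed ligands to summed receptors was thus 18.6 and 21.8 (empty A and B) and 29.9 and 38.8 (Wnt5a A and B), without overlap. A comparison of 2 libraries with 2 cannot give an exact two-sided permutation p under 0.333, so these sums are given as a description.

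**Figure D1:**
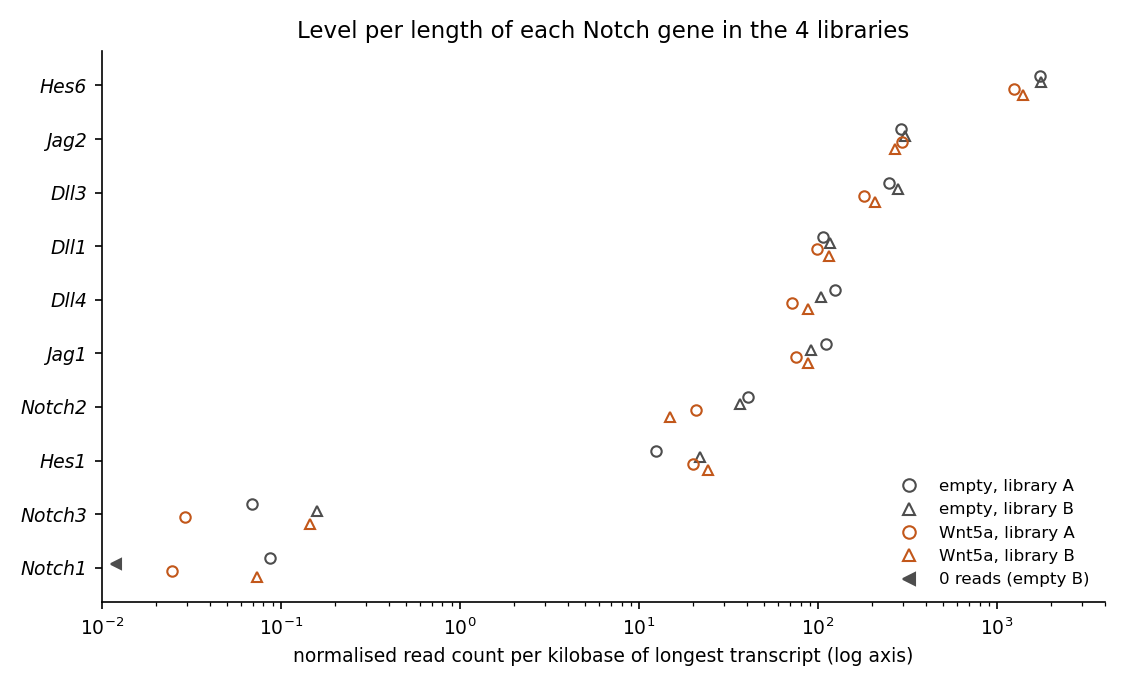
Normalised read count per kilobase of longest transcript on a log axis for each of the 10 Notch genes, with 1 point for each of the 4 libraries and a filled arrow for a library at 0 reads. Hes6 lies near 1747 in the empty libraries, all 5 ligands lie above Notch2, and Notch1 and Notch3 lie far below the rest.

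Changes between groups were tested on log2(normalised read count + 1) over all 12357 genes with a mean value of at least 10. Of the 10 Notch genes 8 were tested, all of them above that minimum in each group, and Notch1 and Notch3 were too low in both groups. A gene was called at a limma adjusted p under 0.05. One of the 8 was called, Notch2, which was lower, against 2.06% of all tested genes called in either direction, 0.672% called lower and 1.38% called higher. All called genes numbered 254, of which 171 were higher in the Wnt5a libraries; with the median of each chromosome removed they numbered 206, of which 117 were higher. Without empty library A, 3 of the 8 were called (Dll3, Notch2 and Hes6), against 3.99% of all tested genes. Without empty library B, 5 were called (Dll4, Jag1, Notch2, Hes1 and Hes6), against 8.89% of all tested genes. Leaving out either Wnt5a library instead brought fewer calls over all tested genes, and no further Notch gene beside Notch2. The median log2 difference of the 8 was then -0.26 (Wnt5a library A left out) and -0.46 (Wnt5a library B left out). Among the fits with a library left out, more Notch calls were thus seen only without an empty library. DESeq2 on recovered reads called 4 (Dll3, Dll4, Notch2 and Hes6), against 4.35% of all tested genes, and edgeR called Notch2 alone, against 1.99%. Before adjustment, 5 of the 8 had a p under 0.05, all with lower values in the Wnt5a libraries, against 16.1% of all tested genes. The same 5 had libraries that did not overlap between groups, against 44.2% of all tested genes. The median log2 difference of the 8 was -0.36, beside 0.0026 for all tested genes. These counts describe the 8 genes and were not tested as a set.

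**Figure D2:**
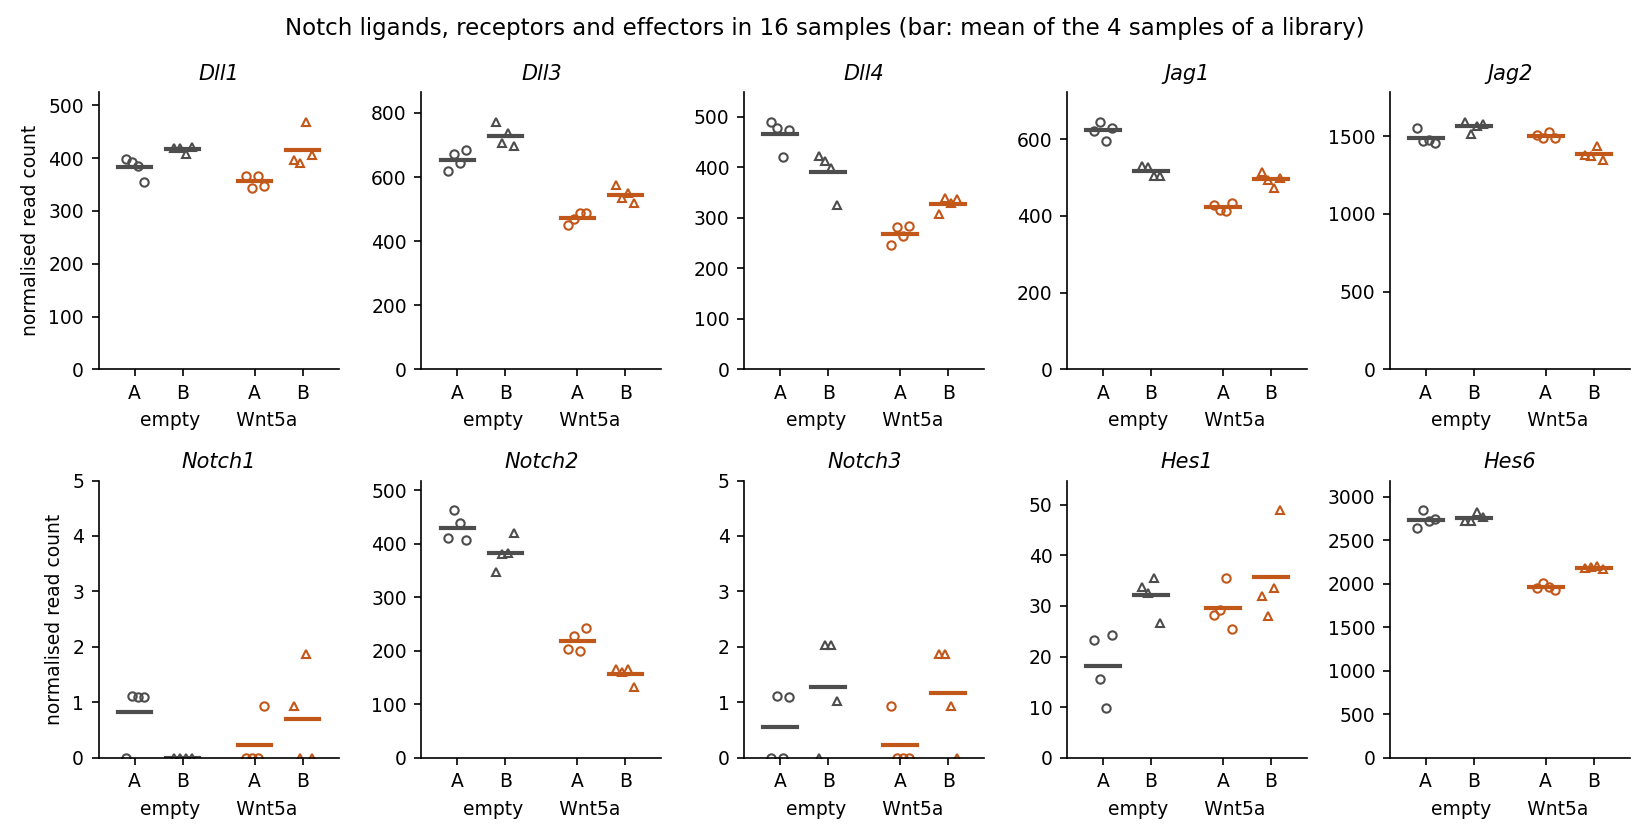
Normalised read count of each of the 10 Notch genes in all 16 samples, grey for empty and orange for Wnt5a, circles for library A and triangles for library B, with a bar at each library mean. The 8 Wnt5a samples of Notch2, Dll3 and Hes6 lie below all 8 empty samples, while the groups overlap for Dll1, Jag2 and Hes1.

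Notch2 had the highest level per kilobase of the 4 Notch receptors in every library, and its level fell in the Wnt5a libraries. The 8 empty samples had a lowest, median and highest normalised read count of 348, 409 and 463, and the 8 Wnt5a samples of 133, 183 and 243. Every Wnt5a sample lay below every empty sample, which adds little to the separation of the libraries. Over libraries the level was 406 ± 32.6 in empty and 187 ± 43.9 in Wnt5a (SD, n = 2), a log2 difference of -1.13 (SE 0.16, 95% confidence interval -1.52 to -0.74, limma adjusted p = 0.0236). This is a 2.19-fold lower level on that scale, from 1557 and 1505 reads in the empty libraries to 930 and 667 reads in the Wnt5a libraries. In bulk RNA, fewer cells expressing a gene and less RNA per cell cannot be told apart. The call was kept when any of the 4 libraries was left out (log2 difference -1.37 to -0.89) and was lost without the filter on low values (limma adjusted p = 0.102) and without the trend in eBayes (limma adjusted p = 0.0724). Over the 11 alternatives that kept all 4 libraries the adjusted p of Notch2 ranged from 2.66e-09 (DESeq2) to 0.102. Gm42820, which shares exon sequence with Notch2 on the same strand in GENCODE M21, is not analysed here.

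Notch2 lies on chromosome 3, where the median log2 difference of the 584 tested genes was 0.02. The promoter of this receptor, from 250 bases before to 50 after the RefSeq start (GRCm38.p6, chr3:98013288-98013587, plus strand), is shown because it is the regulatory sequence beside the called gene. It was searched on both strands for TGGGAA, the core bound by Rbpj, and for CAGCTG, an E-box. Neither is found in it, which says only that these letters are not in this window.
Notch2: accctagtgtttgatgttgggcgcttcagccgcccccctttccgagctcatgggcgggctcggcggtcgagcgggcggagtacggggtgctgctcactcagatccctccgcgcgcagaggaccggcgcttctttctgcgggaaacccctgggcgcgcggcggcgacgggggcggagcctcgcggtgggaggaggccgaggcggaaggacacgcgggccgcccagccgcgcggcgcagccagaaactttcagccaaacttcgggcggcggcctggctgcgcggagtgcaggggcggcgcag

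The other receptors were lower, and Notch1 and Notch3 had at most 5 reads in any library. Notch1, the receptor best known from T cells, had 3 and 0 reads in empty libraries A and B and 1 and 3 reads in the Wnt5a libraries. Summed over a group this was 3 reads of 62813091 in empty (exact Poisson 95% interval 0.619 to 8.77, counting error only) and 4 of 70418339 in Wnt5a (1.09 to 10.2). Notch3, known from vascular smooth muscle, had 2 and 5 reads in empty libraries A and B and 1 and 5 with Wnt5a. A difference between groups was not detectable for either at this depth. Notch4, the receptor of endothelium, was at 42.2 and 29.6 (empty A and B) and 21.6 and 31.2 (Wnt5a A and B), which overlap (log2 difference -0.43, limma adjusted p = 0.496). Notch2 made up 86.2% and 88.7% of the summed receptor level per kilobase in the empty libraries and 86.2% and 75.0% in the Wnt5a libraries.

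**Figure D3:**
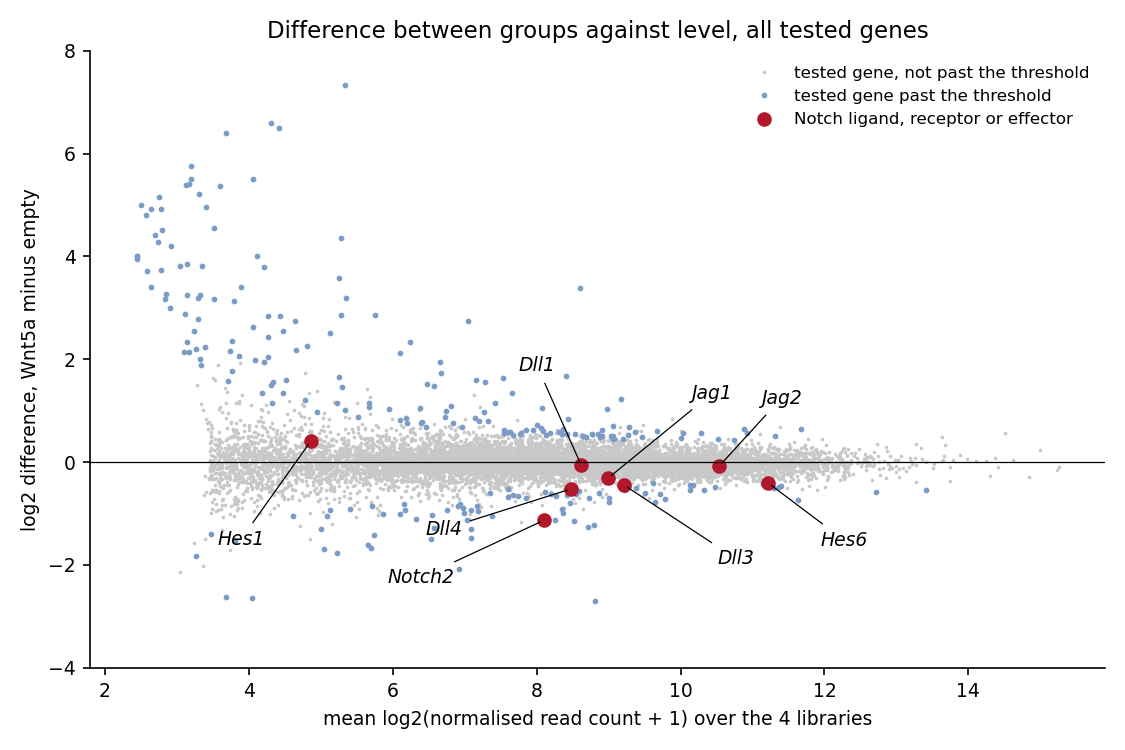
Log2 difference between groups against mean log2 level for the 12357 tested genes, with the 8 tested Notch genes in red. Notch2 lies among the called genes at -1.13; Dll3, Dll4, Jag1 and Hes6 lie between -0.52 and -0.31 and were not called.

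Among the ligands none was called. Dll3, Dll4 and Jag1 had lower values in both Wnt5a libraries, while Dll1 and Jag2 overlapped between groups. Thus 3 of the 5 had libraries without overlap, against 44.2% of all tested genes. By limma 3 of the 5 had an unadjusted p under 0.05 (16.1% of all tested genes), edgeR called 0 of the 5 (1.99%) and DESeq2 called 2, Dll3 and Dll4 (4.35%). Dll3 had a lowest, median and highest normalised read count of 617, 691 and 773 in the 8 empty samples and of 450, 502 and 574 in the 8 Wnt5a samples. The samples of the groups did not overlap for Dll3. Its level over libraries was 691 ± 53.0 against 509 ± 50.1 (SD, n = 2), a log2 difference of -0.44 (SE 0.10, limma adjusted p = 0.0933). With DESeq2 its adjusted p was 0.0126, and over the 11 alternatives with all 4 libraries it ranged from 0.0028 to 0.181. Over the 4 fits that each left out 1 library, its log2 difference ranged from -0.54 to -0.34.

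Dll4, a Delta ligand best known from sprouting vessels, had values of 326, 422 and 490 (lowest, median, highest) in the empty samples and of 247, 296 and 339 in the Wnt5a samples. The highest Wnt5a samples reached above the lowest empty sample, although the libraries did not overlap. Over libraries it was at 428 ± 53.4 against 299 ± 41.9 (SD, n = 2), a log2 difference of -0.52 (SE 0.13, limma adjusted p = 0.118). DESeq2 gave an adjusted p of 0.0140, and the range over the 11 alternatives was 0.0140 to 0.223. An exon of Gm14207, at no more than 20.1 normalised reads in any library, overlaps Dll4 on the other strand, and the strand use of the counts is not given in the sources used here.

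Jag1, a Jagged ligand that activates Notch in many epithelia, was at 622 and 516 (empty A and B) and 422 and 495 (Wnt5a A and B). These libraries do not overlap, but the samples of the groups overlap between 504 and 515. The log2 difference was -0.31 (SE 0.12, 95% confidence interval -0.60 to -0.02, limma adjusted p = 0.277). Over the 4 fits that each left out 1 library, the log2 difference ranged from -0.44 to -0.18 for Jag1. For Dll4 it ranged from -0.66 to -0.38.

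Jag2, the highest of the 5 ligands per kilobase, was at 1489 and 1563 (empty A and B) and 1504 and 1384 (Wnt5a A and B). The groups overlapped, with a log2 difference of -0.08 (SE 0.08, 95% confidence interval -0.27 to 0.11, limma adjusted p = 0.714). Dll1, the Delta ligand that activates Notch on neighbouring cells, was at 383 and 417 against 356 and 415, a log2 difference of -0.06 (SE 0.10, 95% confidence interval -0.30 to 0.19, limma adjusted p = 0.873). Its direction turned when empty library B or Wnt5a library A was left out. As a share of the summed ligand level per kilobase, Jag2 held 33.0% and 34.1% (empty A and B) and 40.8% and 35.2% (Wnt5a A and B), and Dll3 held 28.3% and 31.0% against 25.05% and 26.97%. Among these 5 ligands, Jag2 and Dll3 were thus the main transcripts in each library. Dner, an atypical ligand outside this sum, stood higher per kilobase, at 1254 and 1301 (empty A and B) and 1053 and 1070 (Wnt5a A and B).

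Promoters were found in the RefSeq table for 9 of the 10 genes, and none for Hes1. Of these 9 genes 4 hold CAGCTG in at least 1 promoter, namely Dll1, Dll3, Jag1 and Hes6, and 0 hold TGGGAA. Counted by promoter, 5 of their 11 promoters hold CAGCTG and 0 hold TGGGAA. In all 32851 promoters of the same length the shares are 16.3% for CAGCTG and 25.6% for TGGGAA. The E-box reads the same on both strands. The motifs were chosen after the values were seen, and a match describes the letters and not a bound site. The Dll3 promoter (GRCm38.p6, chr7:28301736-28302035, minus strand) is shown, 5′ to 3′ and with the motif in capitals, because this ligand marks the tumour type. Its CAGCTG begins 7 bases before the RefSeq start.
Dll3: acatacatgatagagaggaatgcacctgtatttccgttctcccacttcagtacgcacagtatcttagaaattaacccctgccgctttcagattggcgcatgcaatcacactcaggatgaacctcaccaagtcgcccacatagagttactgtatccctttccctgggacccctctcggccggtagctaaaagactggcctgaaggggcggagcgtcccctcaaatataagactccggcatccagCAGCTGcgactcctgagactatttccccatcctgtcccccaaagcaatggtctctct

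Of the effectors, Hes6 had lower values in the Wnt5a libraries and Hes1 was low throughout. Hes6 had a lowest, median and highest normalised read count of 2635, 2737 and 2845 in the 8 empty samples and of 1925, 2085 and 2209 in the 8 Wnt5a samples. These sets did not overlap. Over libraries it was at 2748 ± 15.5 against 2074 ± 159 (SD, n = 2), a log2 difference of -0.41 (SE 0.08, 95% confidence interval -0.60 to -0.21), and with a limma adjusted p of 0.0663 it was not called. DESeq2 gave an adjusted p of 0.0032. Over the 4 fits that each left out 1 library, the log2 difference of Hes6 ranged from -0.49 to -0.33. Over the 11 alternatives with all 4 libraries the adjusted p ranged from 0.0032 to 0.320.

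Hes6 lies on chromosome 1, where the median of 689 tested genes was also lower in the Wnt5a libraries, at -0.17 on the log2 scale. With the median of each chromosome removed, the log2 difference of Hes6 was -0.23 (limma adjusted p = 0.320), and that of Notch2 was -1.15 (limma adjusted p = 0.0214). The 7 other tested Notch genes lie on chromosomes whose medians were between -0.01 and 0.02. RefSeq gives 2 promoters for Hes6, shown because each holds CAGCTG, in capitals, at 171 and at 150 bases before its start (GRCm38.p6, minus strand, chr1:91413989-91414288 and chr1:91413173-91413472).
Hes6, outer start: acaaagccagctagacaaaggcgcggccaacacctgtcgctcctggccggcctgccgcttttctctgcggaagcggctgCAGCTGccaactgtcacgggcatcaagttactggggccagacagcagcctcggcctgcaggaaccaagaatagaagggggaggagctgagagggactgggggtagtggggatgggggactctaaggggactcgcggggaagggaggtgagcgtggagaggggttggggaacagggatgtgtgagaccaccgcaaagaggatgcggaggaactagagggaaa
Hes6, inner start: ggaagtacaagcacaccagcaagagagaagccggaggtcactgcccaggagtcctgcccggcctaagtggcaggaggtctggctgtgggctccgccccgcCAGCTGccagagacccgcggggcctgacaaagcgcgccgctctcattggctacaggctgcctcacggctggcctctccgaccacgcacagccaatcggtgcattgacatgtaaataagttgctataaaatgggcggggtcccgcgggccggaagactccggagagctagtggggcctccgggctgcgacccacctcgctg

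**Figure D4:**
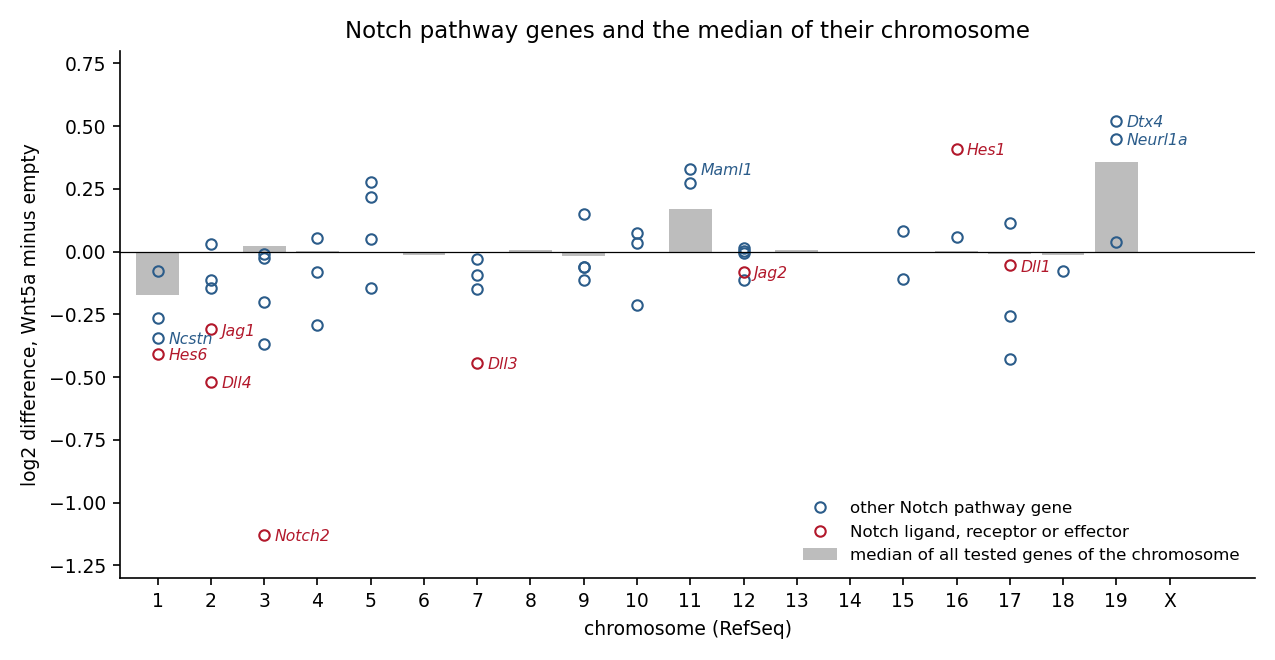
Log2 difference of the tested Notch ligands, receptors and effectors (red) and of the other tested Notch pathway genes (blue) by chromosome, with grey bars at the median of all tested genes of each chromosome. Hes6 and Ncstn lie on chromosome 1 (median -0.17) and Neurl1a and Dtx4 on chromosome 19 (median 0.36); Notch2 lies on chromosome 3 (median 0.02).

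Hes1, the main Notch-induced repressor, was at 18.2 and 32.1 normalised reads (empty A and B) and 29.6 and 35.6 (Wnt5a A and B), from 66 to 152 reads per library. Its lowest, median and highest sample values were 9.88, 25.4 and 35.5 among empty samples against 25.4, 30.6 and 48.9 among Wnt5a samples, so the groups overlapped, and empty library A was lowest. The log2 difference was 0.41 (SE 0.28, 95% confidence interval -0.26 to 1.08, limma adjusted p = 0.569). Without empty library B it was 0.80, and the 4 such fits ranged from 0.02 to 0.80, so the value rests on the empty libraries. Per kilobase, Hes6 was 140 and 80.3 times as high as Hes1 in the empty libraries and 61.9 and 57.3 times as high in the Wnt5a libraries.

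The remaining pathway was surveyed with 49 further genes, of which 47 were listed and 43 tested. One was called, Neurl1a, against 2.06% of all tested genes, and the median log2 difference of the 43 was -0.03 (0.0045 without empty library A). Neurl1a, a ubiquitin ligase of ligand endocytosis, was at 524 and 486 (empty A and B) and 680 and 698 (Wnt5a A and B), without overlap of samples. Its level rose, with a log2 difference of 0.45 (SE 0.08, 95% confidence interval 0.26 to 0.64, limma adjusted p = 0.0469). It lies on chromosome 19, whose median was 0.36 over 412 tested genes, and with chromosome medians removed its difference was 0.09 (limma adjusted p = 0.765). The call was also lost when either Wnt5a library was left out (limma adjusted p = 0.143 without library A and 0.232 without library B), after median centring (0.0521), without the trend (0.105) and with the other filters (0.0708 and 0.0931). Dtx4, a Deltex-type ubiquitin ligase, also on chromosome 19, was at 135 and 129 against 190 and 188, which differ by 0.52 in log2 (limma adjusted p = 0.0571), or 0.16 with the chromosome median removed.

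Receptor cleavage and the nuclear complex showed no call. Of the 8 genes of gamma-secretase and the Adam sheddases, 0 were called by limma, against 2.06% of all tested genes. Ncstn alone had an unadjusted p under 0.05, against 16.1% of all tested genes. Ncstn, the substrate-binding subunit of gamma-secretase, was at 1869 and 1858 (empty A and B) and 1405 and 1537 (Wnt5a A and B), a log2 difference of -0.34 (95% confidence interval -0.53 to -0.16, limma adjusted p = 0.0905; DESeq2 adjusted p = 0.0239). It lies on chromosome 1, and with chromosome medians removed its log2 difference was -0.17 (limma adjusted p = 0.489). Rbpj, the DNA-binding partner of the cleaved receptor, was at 1376 and 1306 against 1455 and 1325, with overlap of the groups and a log2 difference of 0.05 (95% confidence interval -0.14 to 0.24). In the nuclear complex, 0 of 6 genes were called and Maml1 alone had an unadjusted p under 0.05, beside the same shares of all tested genes. Maml1 was at 206 and 226 against 270 and 273 (log2 difference 0.33, limma adjusted p = 0.150). It lies on chromosome 11, whose median was 0.17. Ep300, an acetyltransferase recruited to the complex, had the highest count of these 6, at 1718 and 1433 against 1593 and 1328, with overlap.

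Among the other roles were the enzymes that glycosylate or mature receptors (6 genes), the negative regulators (10 genes) and the co-repressors (4 genes). Each had 0 calls by limma, against 2.06% of all tested genes, with 1, 2 and 0 genes at an unadjusted p under 0.05. Over all 43 pathway genes 8 had such a p, against 16.1% of all tested genes. By the mean over all 4 libraries, not scaled by length, the genes with the highest counts in these 3 lists were Lfng, a fringe glycosyltransferase (910 and 858 in the empty, 822 and 775 in the Wnt5a libraries), Spen, a co-repressor that binds Rbpj (1512 and 1331 against 1200 and 1118), and Tle3, a Groucho-type co-repressor of Hes proteins (1024 and 1132 against 1133 and 1257). The libraries of all 3 genes did not overlap between groups, as for 23 of the 43 pathway genes and 44.2% of all tested genes. None of the 3 was called. Spen had a log2 difference of -0.29 (95% confidence interval -0.51 to -0.08, limma adjusted p = 0.175). Lfng and Tle3 had log2 differences of -0.15 and 0.15, with 95% confidence intervals that include 0. Neurl1b, the relative of Neurl1a, was at 1378 and 1406 against 1523 and 1485, without overlap (log2 difference 0.11, limma adjusted p = 0.522). Hey1, a Notch-induced repressor, had the highest count of the 6 listed other effectors, at 415 and 352 (empty A and B) and 315 and 278 (Wnt5a A and B). These did not overlap (log2 difference -0.37, SE 0.11, limma adjusted p = 0.177). Hes5 was at 10.47 and 9.93 against 8.22 and 5.16 and was too low to test, as were Hes2, Hes7 and Heyl. Dner, an atypical ligand of neurons, had the highest count of Notch4 and the ligand-like genes, at 4554 and 4724 against 3823 and 3888 (log2 difference -0.27, limma adjusted p = 0.143), on chromosome 1.

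**Figure D5:**
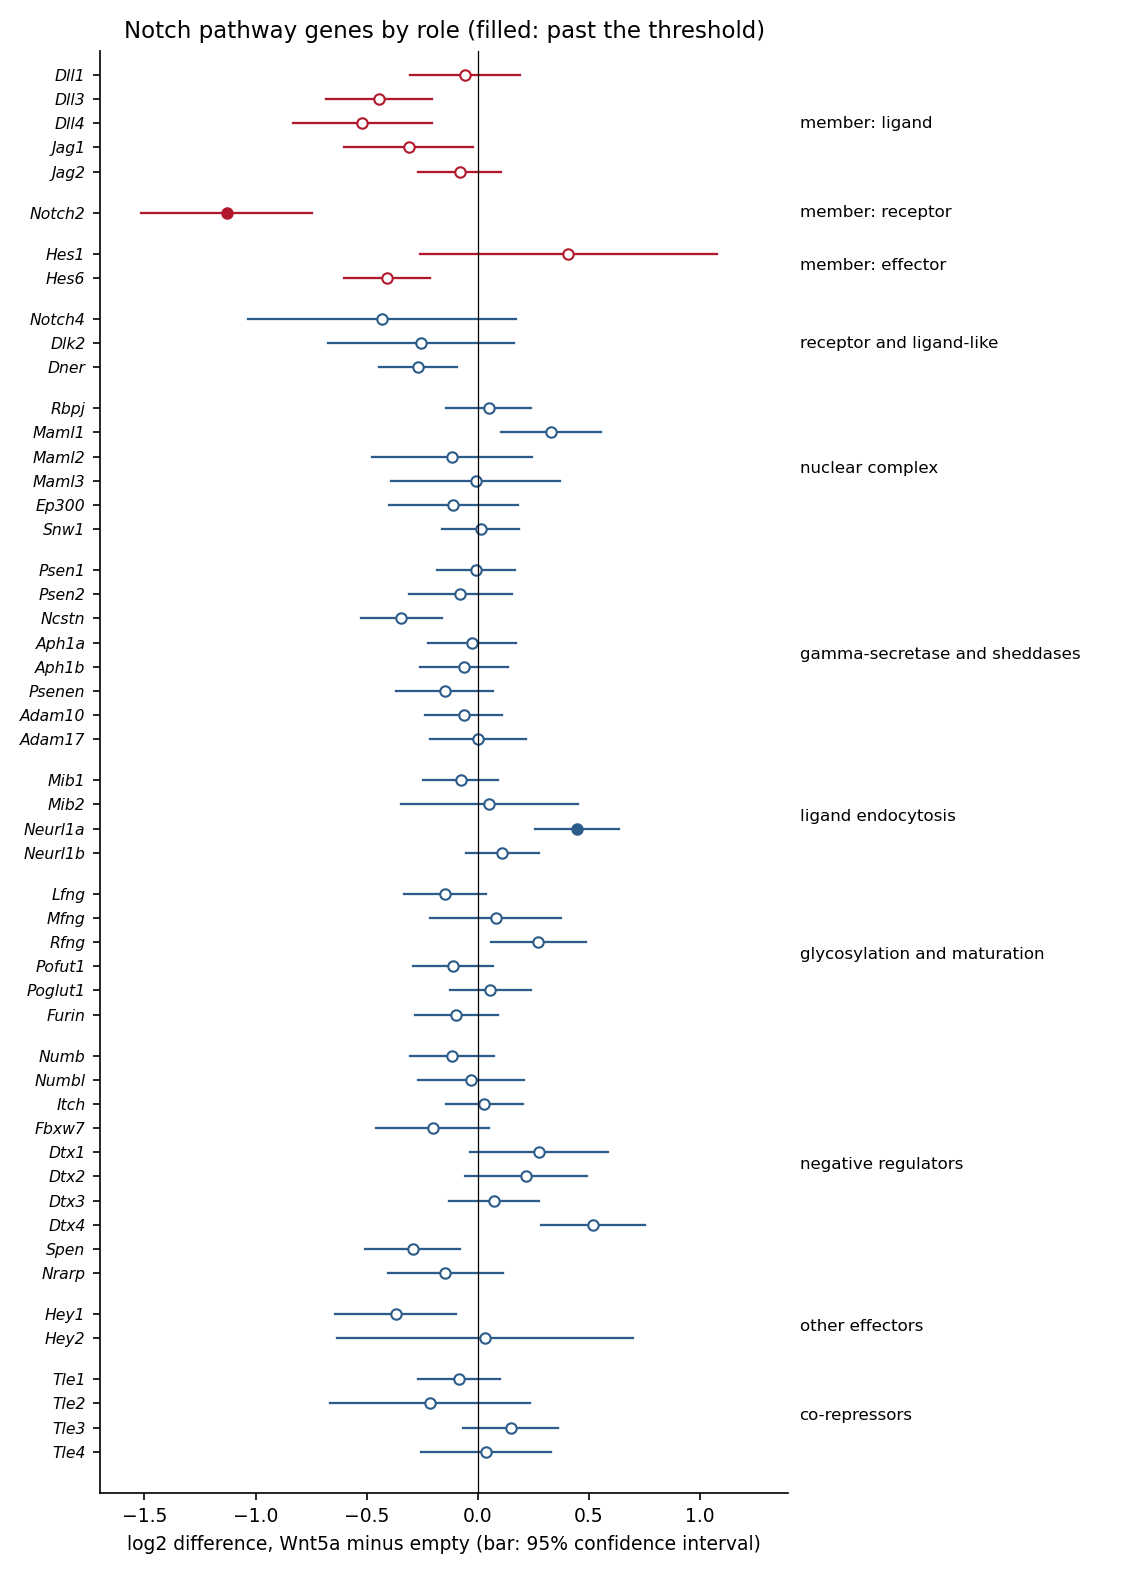
Log2 difference with its 95% confidence interval for the 8 tested Notch ligands, receptors and effectors (red) and the 43 other tested pathway genes (blue), grouped by role, with filled points for called genes. Notch2 at -1.13 and Neurl1a at 0.45 are the called genes.

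The 3 tested genes whose profile over the 4 libraries was most like that of Notch2, by the Euclidean distance of log2 levels centred on each gene's own mean, were Slc38a11 (distance 0.103), Gm5532 (0.174) and Cartpt (0.215). Slc38a11, an amino acid transporter family member, was at 253 and 221 (empty A and B) and 133 and 98.9 (Wnt5a A and B), a log2 difference of -1.04 (limma adjusted p = 0.0284). Gm5532 was at 17.9 and 18.1 against 10.1 and 7.03 and was not called (log2 difference -1.01, limma adjusted p = 0.118). Cartpt, a neuropeptide precursor, was at 524 and 414 against 263 and 208 (log2 difference -0.99, limma adjusted p = 0.0300). Likeness over 4 libraries is a description.

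Markers of other cell types that carry Notch genes were examined beside these values. The 4 listed endothelial markers summed to 4.58 to 5.79 in empty libraries against 3.52 to 4.46 with Wnt5a, and the 4 of pericytes and smooth muscle to 7.44 to 7.64 and 6.80 to 10.8. In the fibroblast list (4 of 5 listed) the sum was 604 and 353 (empty A and B) and 244 and 248 (Wnt5a A and B), in the same direction as Notch2. Nearly all of it was Dcn (597 and 340 against 241 and 246). Col1a1 was at 2.21 and 3.56 against 0.235 and 0.704 (8 and 14 against 1 and 3 reads). Pdgfra was at 4.69 and 9.41 against 2.82 and 1.18 (17 and 37 against 12 and 5 reads). Both were also lower in both Wnt5a libraries but too low to test, and 44.2% of all tested genes had libraries without overlap. Col1a2, of the same list, was at 0 in both empty libraries and had 1 read in each Wnt5a library. The part of these transcripts in the Notch2 difference was not tested. Leukocyte markers (3 of 4 listed) summed to 9.65 to 12.7 over all libraries and those of club and ciliated cells (3 of 4 listed) to 21.8 to 24.7. Of 5 markers of non-neuroendocrine tumour cells, Rest, Vim and Cd44 were at no more than 1.41 in any library, Yap1 was at 19.6 to 25.6 and Myc at 169 to 177. Rest, a repressor of neuronal genes that Notch can induce, had 2 reads summed over the empty samples and 0 over the Wnt5a samples.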

How the data were processed

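RNA was sequenced from 16 preSC samples (8 empty, 8 Wnt5a), after oligo-dT purification of mRNA out of 500 ng total RNA, per the labels' protocols. Per the submitters' processing notes, TopHat, Bowtie, HTSeq and DESeq2 were used; their versions and roles, the genome build, the annotation and the strand setting are not given in the sources used here. The deposited value per gene is a normalised signal. Within each file 100% of values are whole multiples of a step (tolerance 0.01 reads), between 0.934 and 1.11, so reads were recovered by division.

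Sample pairs of a group with an index of dispersion under 1.5 were averaged, which gave 2 libraries per group of 30220749 to 35315408 reads. Genes with a mean value of at least 10 were tested with limma 3.58.1 (R 4.3.3; moderated with a mean-variance trend) after log2(value + 1), and p-values of all 12357 genes were adjusted by the Benjamini-Hochberg method; this scale understates changes of low genes. Lengths are of the longest GENCODE M21 transcript. Chromosomes and promoters are from RefSeq (GRCm38.p6); 17617 symbols had a chromosome.

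Alternatives were pseudocounts of 0.1 and 10, no filter or a minimum of 50, quantile normalization, median centring, eBayes without trend, the replicate block, each library left out, chromosome medians removed, and edgeR 4.0.16 and DESeq2 1.42.0 on recovered reads. Genes named are the 10 Notch genes, called pathway genes, the gene of each role with the highest mean value, Wnt5a, Chga and the 3 nearest profiles of Notch2; Dtx4, Maml1, Rbpj, Notch4, Hes5 and the promoter motifs were chosen after values were seen. Some list members are not reported here and were left out of the lists. The genes and lists were chosen with earlier results of these data known.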

Additional observations from a re-analysis of the deposited data

How the results depend on the processing

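With the replicate block, which adds the library letter from the samples' numbers, 2095 of all 12357 tested genes were called (1073 higher, 1022 lower). Without it 254 were called (171 higher, 83 lower). The block gave 4 of 8 tested Notch genes (Dll3, Dll4, Notch2 and Hes6) against 1, and 9 of 43 other pathway genes against 1. These counts thus rose beside a rise over all tested genes. Whether libraries of the same letter belong together is not given in the sources used here, and the main fit does not pair them. Their deviations from the group means correlated across genes at a Pearson r of 0.44 (Spearman 0.53), and genes are not independent replicates. DESeq2 called 538 genes (313 higher), the same 4 Notch genes, and 3 pathway genes. Without the filter 146 genes were called (130 higher), with 0 Notch and 0 pathway genes; without the trend 158 (117 higher), 0 and 0; with a minimum of 50, 102 (60 higher), Notch2 and 0 pathway genes. The cause of these losses was not tested. At an unadjusted p under 0.05, limma had 5 of 8 tested Notch genes and 8 of 43 pathway genes, against 16.1% of all tested genes; edgeR called 246 genes, with Notch2 and Neurl1a. Median centring and removal of chromosome medians each left 0 pathway genes called, and chromosome medians gave 206 genes of which 117 were higher. Leaving out 1 library, with the lone sample assumed to vary like the others, gave 138 to 1098 genes, 1 to 5 Notch genes and 0 to 5 pathway genes. Notch2 was among the calls each time. The log2 difference of Dll1 then lay between -0.167 and 0.0560 and turned positive without empty library B (0.0050) and without Wnt5a library A (0.0560). The median of the other pathway genes then lay between -0.0780 and 0.0045, above 0 without empty library A. Of 119 alternative values of the 8 tested Notch genes, 103 kept direction and call, 2 lost the call, 12 gained it and 2 turned. Depth limits the comparison of Notch1 and Notch3, which had at most 5 reads in any library.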
